A study of Mus musculus with 4 samples.

Results

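The potassium channel genes were taken as all gene symbols in the deposited count table that start with Kcn, leaving out 4 non-coding names (Kcnq1ot1, Kcnd3os, Kcnmb4os1 and Kcnmb4os2). This gave 94 genes out of 24421 symbols, and they were compared between DPPIV+ FAPs and DPPIV- FAPs. Fibro-adipogenic progenitors (FAPs) are the stromal precursor cells found between the fibres of skeletal muscle. They were sorted here as PI- CD31- CD45- Sca1+ cells and split by DPPIV, the surface peptidase encoded by Dpp4. Bulk RNA was sequenced from both populations of the same 2 adult wild-type mice, so each of the 4 libraries is 1 population of 1 mouse (n = 2 for either population). Both mice, and so all 4 libraries, had received a CSF1R inhibitor (PLX73086 in chow, by the study's methods) for 3 weeks and then a regular diet for 3 days. No untreated mice were analysed here, so the values describe the populations after macrophage depletion and drug withdrawal only. The labels name the tibialis anterior as the tissue, while their protocol describes the muscle of both hindlimbs. The mice 231H6 and 235H5 of the labels are called mouse 1 and mouse 2.

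Potassium channels let potassium ions leave or enter the cell along their gradient, and so set the resting membrane potential, cell volume and the driving force for calcium entry. Voltage-gated subunits (Kcna, Kcnb, Kcnc, Kcnd, Kcnh, Kcnq) open on depolarization, and inward rectifiers (Kcnj) pass current best at negative potentials. The 2-pore-domain channels (Kcnk) leak potassium at rest, and another group opens on intracellular calcium or sodium (Kcnma1, Kcnn, Kcnt). Kcnu1 was counted with this last group by its symbol only. Modifier subunits (Kcnf, Kcng, Kcns, Kcnv) form no channel alone but change the voltage-gated channels they join, and auxiliary proteins (Kcnab, Kcne, Kcnip, Kcnmb, with the regulator Kcnrg) bind to pore subunits and alter their gating or their traffic to the membrane. Fibroblasts are not electrically excitable in the way of neurons or muscle fibres, and potassium channels are studied in them mainly for resting potential, volume and proliferation.

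Between 18240110 and 20879405 reads were counted per library. Library sizes were scaled by edgeR's TMM method, levels are given as CPM (read counts scaled to a common library size), and genes that reached 2 CPM in at least 2 libraries were tested for the effect of cell type with mouse as a second term. Dpp4 had 1879 and 776 reads in the DPPIV- libraries (mouse 1 first, as throughout) against 13106 and 10476 reads in the DPPIV+ libraries, the direction of the sort. The FAP markers Pdgfra, Ly6a, Cd34 and Dcn summed to between 15652 and 19214 CPM in every library. Markers of other cells were lower: the endothelial list reached 502 CPM at most, of which Tek made up 467 CPM, and 5 haematopoietic markers 89.3 CPM at most. The 3 satellite cell markers Pax7, Myf5 and Cdh15 summed to no more than 1.38 CPM. The 3 tenocyte markers Tnmd, Scx and Mkx were all higher in DPPIV+ FAPs (against 15.9% of all genes tested), from between 29.0 and 35.3 CPM to between 60.1 and 105 CPM in sum. Scx reached 2 CPM in the DPPIV+ libraries alone and so had to be higher. Mkx was not called without mouse in the model (adjusted p = 0.0647 in edgeR). In bulk RNA, fewer cells that express a gene and less RNA per cell cannot be told apart.

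Of the 94 genes, 22 passed the filter, 44 had reads but stayed under it, and 28 had 0 reads in all libraries. In these cells most tested potassium channel genes were lower in DPPIV+ FAPs and a single one, Kcnk5, was strongly higher. At an adjusted p under 0.05 (edgeR's quasi-likelihood test, two-sided, Benjamini-Hochberg adjusted over 11588 genes), 15 of the 22 were lower (68.2%, against 17.2% of all genes tested) and 3 were higher (13.6%, against 15.9% of all genes tested). The remaining 4 did not pass, so 18 of the 22 were called in either direction, against 33.0% of all genes tested. A fitted difference of more than 2-fold was called for 11 lower and 1 higher gene, against 4.88% and 2.91% of all genes tested. The median log2 fold change was -0.96 over the 22 genes and -0.00 over all genes tested. All 15 lower genes had both DPPIV+ libraries below both DPPIV- libraries, which held for 28.6% of all genes tested. The opposite order held for 4 of the 22, the 3 higher genes and 1 that was not called, and for 27.8% of all genes tested. The filter itself favours such genes, since 6 of the 15 (Kcnj15, Kcnj8, Kcng1, Kcng4, Kcnd3 and Kcnip3) passed it through the DPPIV- libraries alone and had to be lower in the others. With 2 CPM required in at least 3 libraries, 16 of the 94 genes were tested, of which 9 were lower (16.0% of all genes then tested) and 3 higher (15.3%). By contrast DESeq2 (Wald test, Benjamini-Hochberg adjusted) called 9 lower and 1 higher (8.59% and 7.97% of all genes), and 7 of the 8 genes it did not call are named where they are described. The plot of CPM by library shows both the size of the Kcnk5 difference and the number of genes below it that moved the other way.

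**Figure D1:**
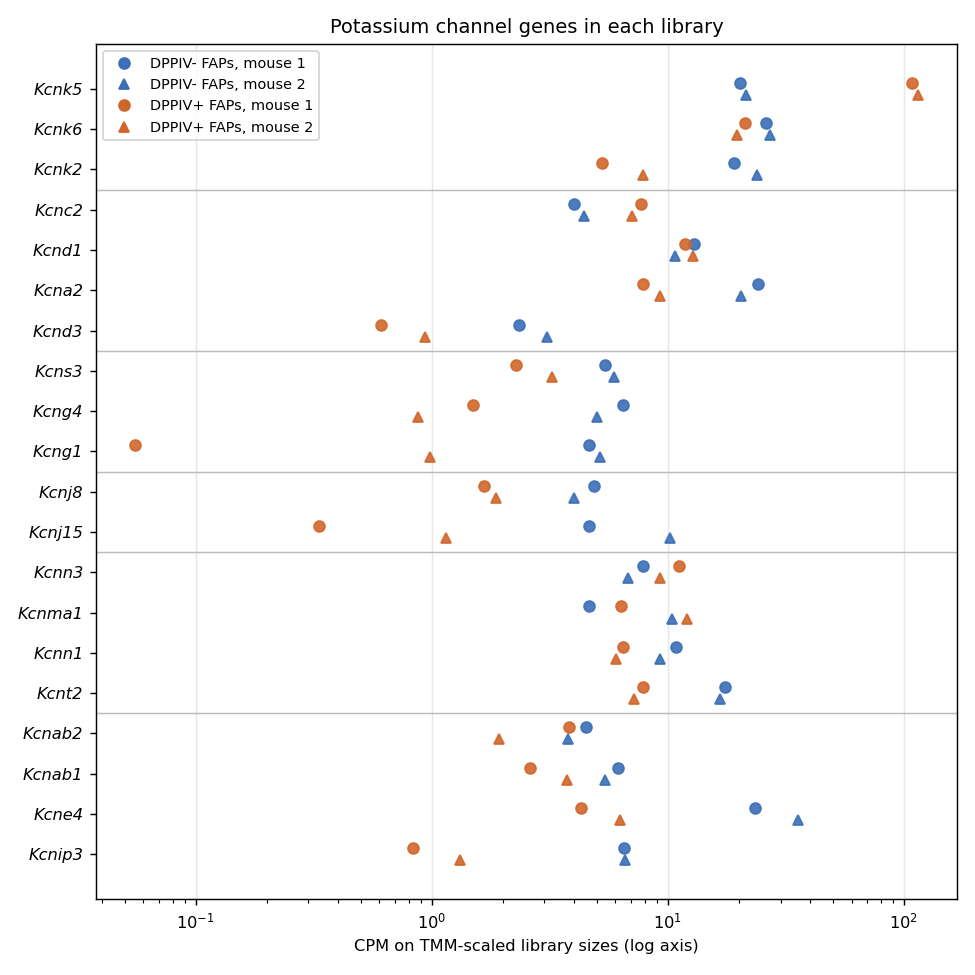
Level of 20 of the 22 potassium channel genes that passed the filter, in CPM on a log axis, for each of the 4 libraries (blue, DPPIV- FAPs; orange, DPPIV+ FAPs; circles, mouse 1; triangles, mouse 2), with grey lines between the families. Kcnk5 stands at 108 and 115 CPM in DPPIV+ FAPs against 20.3 and 21.4 CPM in DPPIV- FAPs, while for 14 of the genes drawn both orange points lie to the left of both blue points.

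The 4 sequences shown lie upstream of Kcnk5, strongly raised, and of Kcnj15, Kcng4 and Kcnj8, lowered genes with 1 RefSeq start each. They were read from RefSeq's promoter table on GRCm38.p6, 5′ to 3′ on the strand of the gene, and end just before the annotated gene, which leaves 223 of the 250 bases for Kcnk5. Capitals mark CG dinucleotides, the sites of DNA methylation. They lie at chr14:20181810-20182032 (minus strand), chr16:95257308-95257557 (plus), chr8:119635681-119635930 (minus) and chr6:142571615-142571864 (minus).
Kcnk5: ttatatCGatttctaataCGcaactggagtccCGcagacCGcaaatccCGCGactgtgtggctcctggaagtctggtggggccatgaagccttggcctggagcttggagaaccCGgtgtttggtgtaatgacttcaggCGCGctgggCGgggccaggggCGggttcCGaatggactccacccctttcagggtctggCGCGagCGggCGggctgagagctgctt
Kcnj15: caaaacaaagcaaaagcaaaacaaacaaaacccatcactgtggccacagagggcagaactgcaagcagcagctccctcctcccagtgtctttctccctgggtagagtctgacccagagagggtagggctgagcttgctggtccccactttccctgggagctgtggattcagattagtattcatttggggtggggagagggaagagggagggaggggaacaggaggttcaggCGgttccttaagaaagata
Kcng4: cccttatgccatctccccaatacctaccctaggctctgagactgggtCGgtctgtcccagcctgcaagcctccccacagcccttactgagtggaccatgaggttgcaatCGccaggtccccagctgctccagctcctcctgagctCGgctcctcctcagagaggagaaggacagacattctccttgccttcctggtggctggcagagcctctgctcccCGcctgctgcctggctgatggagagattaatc
Kcnj8: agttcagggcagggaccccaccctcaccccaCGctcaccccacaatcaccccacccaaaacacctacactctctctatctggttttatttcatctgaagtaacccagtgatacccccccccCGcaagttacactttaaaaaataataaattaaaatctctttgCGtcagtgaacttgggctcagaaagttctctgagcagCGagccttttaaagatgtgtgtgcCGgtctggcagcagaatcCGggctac
Counted over the 250 bases before the RefSeq start, Kcnk5 held 19 CG dinucleotides, Kcnj8 held 6, Kcng4 held 4 and Kcnj15 held 1, where all 32851 RefSeq promoters had a median of 6. RefSeq listed 69 of the 94 genes, and 9 of the 18 called genes with 1 start each. Of these 9, the 7 lower genes spanned 1 to 18 CG dinucleotides, a range that Kcnd3 and Kcna2 (18 each) set at its upper end. Kcne4 held 7 and Kcnt2 held 10. The lowered genes shown above are thus those with the fewest of the 7, and do not stand for the others. The 2 higher genes had 19 (Kcnk5) and 10 (Kcnn3). The letters GGGCGG on either strand, a GC box, were found in 1 of the 9, Kcnk5, and in 32.7% of all promoters. TATAAA on either strand was found in 0 of the 9 and in 12.4% of all promoters.

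Among the 2-pore-domain channels, 14 genes were listed and 3 passed the filter. Kcnk5, a background channel that alkaline pH opens, had 424 and 418 reads in the DPPIV- libraries against 1951 and 2094 reads in the DPPIV+ libraries. Both mice therefore showed the difference to nearly the same degree, with log2 ratios of 2.42 and 2.43. The mean rose from 20.8 ± 0.783 CPM (SD, n = 2) to 112 ± 4.61 CPM, a fitted log2 fold change of 2.42 (SE, its standard error, 0.07, with an adjusted p of 7.09e-221 in edgeR), or 5.36-fold. Kcnk5 (ENSMUSG00000023243.9) lies on chromosome 14 of GRCm38 from 20140057 to 20181809 on the minus strand. Its neighbour 79.6 kb away, the related channel gene Kcnk16, had 0 reads in all 4 libraries.

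Kcnk2, a channel opened by membrane stretch and lipids, went the opposite way within the same family. It had 397 and 466 reads in DPPIV- FAPs and 95 and 143 reads in DPPIV+ FAPs, without overlap between the groups. The level fell from 21.4 ± 3.43 to 6.56 ± 1.82 CPM, and the fitted log2 fold change was -1.71 (SE 0.14, adjusted p = 7.97e-34 in edgeR). Kcnk2 (ENSMUSG00000037624.15, chromosome 1, 189207930 to 189402273) shares 604 exon bases with A430027H14Rik on the opposite strand. Kcnk6, a channel found largely in endosomal and lysosomal membranes, had 545 and 528 reads in DPPIV- FAPs and 382 and 357 reads in DPPIV+ FAPs. This smaller difference, a log2 fold change of -0.38 (SE 0.10, adjusted p = 6.90e-04 in edgeR), was not called by DESeq2 (adjusted p = 0.193). The other 11 genes of the family were under the filter, 5 of them at 0 reads in every library, and the most counted was Kcnk1 with 39 reads over the 4 libraries.

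Of 30 genes for voltage-gated pore subunits, 6 passed the filter, 3 of them lower, 1 higher and 2 not called. Of the lower genes, Kcnd3 passed it through the DPPIV- libraries alone. Kcna2, a delayed rectifier subunit known from axons, was the most counted in DPPIV- FAPs, with 502 and 400 reads against 141 and 169 reads in DPPIV+ FAPs. Its level went from 22.2 ± 2.50 to 8.55 ± 1.02 CPM (SD, n = 2), and the fitted log2 fold change was -1.38 (SE 0.13, adjusted p = 1.92e-25 in edgeR), and the log2 ratio was -1.61 in mouse 1 and -1.14 in mouse 2. Kcna2 belongs to a chromosome 3 cluster with Kcna3, 63.1 kb before it, and Kcna10, 68.0 kb after it. Neither neighbour was expressed at a level that could be compared, since Kcna3 had between 0 and 2 reads per library and Kcna10 had 0 throughout.

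Kcnd3, which forms fast inactivating A-type channels, was the voltage-gated gene with the largest fall among those tested. It had 49 and 60 reads in DPPIV- FAPs and 11 and 17 reads in DPPIV+ FAPs (log2 fold change -1.80, SE 0.33, adjusted p = 2.46e-07 in edgeR). Its antisense gene Kcnd3os, which shares 165 exon bases with it, had 2 reads in 1 library and 0 in the others. Kcnd1, of the same subfamily, did not follow it. Kcnd1 had 270 and 210 reads in DPPIV- FAPs and 213 and 233 reads in DPPIV+ FAPs, so the groups overlapped, and the 95% interval of its log2 fold change ran from -0.21 to 0.33 (adjusted p = 0.804 in edgeR).

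In the opposite direction, Kcnc2, a subunit of fast channels of rapidly firing neurons, had 84 and 86 reads in DPPIV- FAPs and 138 and 128 reads in DPPIV+ FAPs. It rose by a log2 fold change of 0.80 (SE 0.20, adjusted p = 3.10e-04 in edgeR, 0.105 in DESeq2). The other 24 voltage-gated genes were under the filter, and 8 of them had 0 reads in all libraries.

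All 3 modifier subunits that passed the filter, out of 10, were lower in DPPIV+ FAPs. Kcng1 and Kcng4 passed it through the DPPIV- libraries alone and had to be lower, so only Kcns3 could have gone either way. Kcng1 (ENSMUSG00000074575.4, chromosome 2, 168260117 to 168281736) had 97 and 101 reads in DPPIV- FAPs and 1 and 18 reads in DPPIV+ FAPs. The mice differed in how far it was lowered. In mouse 1 the DPPIV- level was 83.5 times the DPPIV+ level, with a 95% counting interval of 14.6 to 3330 because of the lone read, and in mouse 2 it was 5.23 times, with an interval of 3.15 to 9.18. The fitted log2 fold change was -3.25 (SE 0.33, adjusted p = 4.18e-22 in edgeR), the log2 ratio was -6.22 in mouse 1 and -2.38 in mouse 2, and DESeq2 did not call the gene (adjusted p = 0.0911). Kcng4 had 135 and 98 reads in DPPIV- FAPs and 27 and 16 reads in DPPIV+ FAPs, with a log2 fold change of -2.27 (SE 0.27, adjusted p = 6.43e-16 in edgeR). Kcns3 had 113 and 116 reads against 41 and 59 reads. Its log2 fold change was -1.05 (SE 0.23), with an adjusted p of 3.79e-05 in edgeR and 0.0566 in DESeq2. The DPPIV+ libraries of all 3 genes lay below their DPPIV- libraries, and the sum over the 10 modifier genes was at least 16.7 CPM in each DPPIV- library and at most 5.76 CPM in each DPPIV+ library.

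The plot of fitted fold changes sets the families side by side. It places Kcnk5 apart from the rest on the right, and Kcnj15, Kcng1, Kcnip3, Kcne4 and Kcng4, the 5 called genes with a fitted fall of more than 4-fold, on the left. Such a fall was called for 22.7% of the tested potassium channel genes and 1.11% of all genes tested, and a rise of that size for Kcnk5 alone, against 1.01% of all genes tested. The filter, as above, let 4 of these 5 in through the DPPIV- libraries alone. Kcne4 passed it in all 4 libraries.

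**Figure D2:**
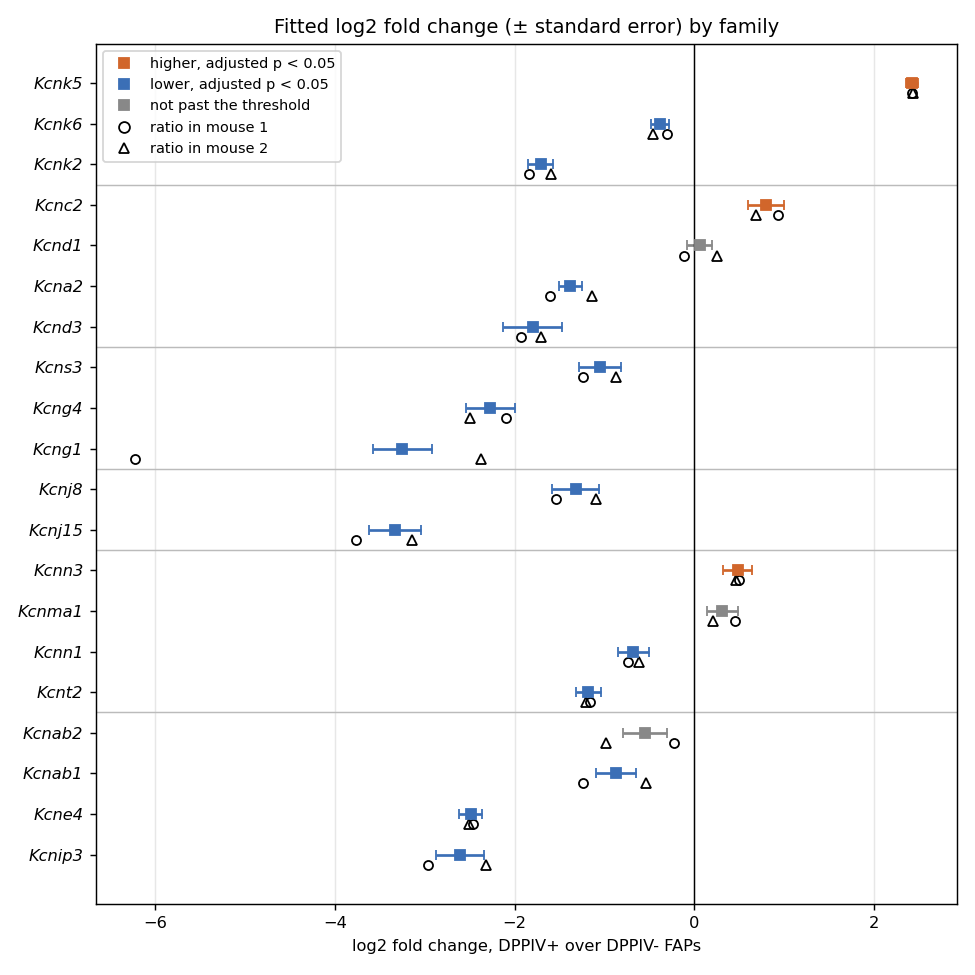
Fitted log2 fold change of DPPIV+ over DPPIV- FAPs (squares, with bars of 1 standard error) and the ratio in each mouse (open circles, mouse 1; open triangles, mouse 2) for 20 of the 22 genes tested, by family. Orange squares are higher and blue squares lower at an adjusted p under 0.05 in edgeR, grey squares did not pass, and Kcng1 shows the widest gap between the mice, -6.22 and -2.38.

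Of 15 inward rectifier genes, 2 passed the filter and both were lower in DPPIV+ FAPs. Both passed it through the DPPIV- libraries alone, so this direction was set by the filter. Kcnj15, a weak inward rectifier of kidney and other epithelia, had 97 and 200 reads in DPPIV- FAPs and 6 and 21 reads in DPPIV+ FAPs. The level went from 7.43 ± 3.95 to 0.743 ± 0.579 CPM (SD, n = 2), and the fitted log2 fold change was -3.33 (SE 0.29, adjusted p = 6.65e-29 in edgeR), the largest fall among the potassium channel genes in this fit. The gene was also higher in mouse 2 than in mouse 1 in both populations, but the 2 DPPIV+ values stayed below the 2 DPPIV- values. Kcnj15 (ENSMUSG00000062609.14, chromosome 16, 95257558 to 95300260) shares 333 exon bases with Gm49643 on the opposite strand.

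Kcnj8 encodes the pore of the ATP-sensitive potassium channel of vascular mural cells and some fibroblasts, and Abcc9, 16.2 kb away on chromosome 6, encodes the sulfonylurea receptor that surrounds this pore. Kcnj8 had 102 and 78 reads in DPPIV- FAPs and 30 and 34 reads in DPPIV+ FAPs (log2 fold change -1.32, SE 0.26, adjusted p = 2.36e-06 in edgeR). Abcc9 had 627 and 568 reads in DPPIV- FAPs and 81 and 129 reads in DPPIV+ FAPs, with a log2 fold change of -2.35 (SE 0.13, adjusted p = 2.47e-72 in edgeR). Both parts of the channel were lower, but only Abcc9 could have gone either way. Kcnj8, as above, passed the filter through the DPPIV- libraries alone. The other pore and receptor of this channel type were hardly counted, with 2 to 5 reads of Kcnj11 and 0 to 2 reads of Abcc8 per library. Since Kcnj8 and Abcc9 also mark mural cells, a list of 7 other mural markers was read beside them. It summed to between 156 and 157 CPM in DPPIV- FAPs and to between 82.3 and 94.8 CPM in DPPIV+ FAPs. In edgeR, 5 of 6 tested markers were lower (against 17.2% of all genes tested), and none was at 0 in all libraries. DESeq2 called only Notch3 and Cspg4 of the list. Notch3 (log2 fold change -1.60) and Cspg4 (-1.27) fell the most, Rgs5 (-0.42) and Des (-0.22) less, and Higd1b had at most 0.204 CPM. The part of mural cells in the values of Kcnj8 and Abcc9 was not tested.

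Among 8 genes grouped as calcium- or sodium-activated channels, Kcnu1 included, 4 passed the filter. Of these, 2 were lower in DPPIV+ FAPs, 1 was higher and 1 was not called. Kcnt2, a sodium-activated channel, had 366 and 325 reads in DPPIV- FAPs and 141 and 131 reads in DPPIV+ FAPs. With 17.1 ± 0.619 against 7.51 ± 0.455 CPM, its log2 fold change was -1.18 (SE 0.14, adjusted p = 1.35e-15 in edgeR). The small-conductance channels Kcnn1 and Kcnn3, which calcium opens through calmodulin, went in opposite directions. Kcnn1 had 225 and 181 reads in DPPIV- FAPs and 116 and 110 reads in DPPIV+ FAPs, with a log2 fold change of -0.68 (SE 0.17, adjusted p = 3.42e-04 in edgeR and 0.111 in DESeq2). Kcnn3 had 165 and 132 reads against 201 and 169 reads, a log2 fold change of 0.48 (SE 0.16, adjusted p = 0.0124 in edgeR, 0.341 in DESeq2 and 0.106 without mouse in the model). The 2 genes kept their directions in both mice.

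Kcnma1, the large-conductance channel opened by calcium and voltage, was called between the mice and not between the cell types. It had 97 reads in DPPIV- and 114 in DPPIV+ FAPs of mouse 1, and 204 and 220 reads in those of mouse 2. The log2 fold change between the cell types was 0.31 (95% interval -0.02 to 0.64, adjusted p = 0.164 in edgeR). Between mouse 2 and mouse 1 it was 1.05 (SE 0.17, adjusted p = 8.98e-08 for the mouse term in edgeR). The log2 ratio of DPPIV+ over DPPIV- FAPs was 0.45 in mouse 1 and 0.21 in mouse 2, so a small difference between the cell types remains possible. The mouse term sets 1 animal against 1, and its p-values measure no spread between animals. The mouse term was called for 4 of the 22 genes (18.2%, against 8.98% of all genes tested), the others being Kcnj15, Kcne4 and Kcnk2, all higher in mouse 2. With DESeq2, Kcnma1 alone of these 4 was called. The labels say nothing of what set the mice apart, and 1016 exon bases of Kcnma1 are shared with 4930519K11Rik on the opposite strand.

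Of 17 auxiliary genes, 4 passed the filter, of which 3 were lower in DPPIV+ FAPs and 1 was not called. Of the lower genes, Kcnip3 passed it through the DPPIV- libraries alone. Kcne4, a membrane protein with 1 transmembrane helix that inhibits several voltage-gated channels, had 492 and 697 reads in DPPIV- FAPs and 77 and 114 reads in DPPIV+ FAPs. Both mice gave close ratios, -2.46 and -2.51 on the log2 scale. The level fell from 29.6 ± 8.57 to 5.27 ± 1.40 CPM (SD, n = 2), and the fitted log2 fold change was -2.49 (SE 0.13, adjusted p = 1.01e-76 in edgeR). Kcne4 (ENSMUSG00000047330.8) lies on chromosome 1 from 78816758 to 78820028.

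Kcnip3, a calcium-binding protein that joins A-type channels and also represses transcription, had 137 and 129 reads in DPPIV- FAPs and 15 and 24 reads in DPPIV+ FAPs. This gave a log2 fold change of -2.61 (SE 0.27, adjusted p = 8.95e-21 in edgeR). Kcnab1 and Kcnab2 encode cytoplasmic beta subunits of Kcna channels. Kcnab1 had 129 and 106 reads in DPPIV- FAPs and 47 and 68 reads in DPPIV+ FAPs, with a log2 fold change of -0.87 (SE 0.22, adjusted p = 4.88e-04 in edgeR and 0.140 in DESeq2), with log2 ratios of -1.24 in mouse 1 and -0.54 in mouse 2. For Kcnab2 the groups overlapped, with 94 and 74 reads against 69 and 35 reads, and the 95% interval of its log2 fold change ran from -1.02 to -0.08 (adjusted p = 0.0657 in edgeR). Summed over the 17 genes, the auxiliary proteins went from 42.5 and 54.4 CPM down to 14.7 and 17.1 CPM.

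Some of these genes are known from peripheral glia and their axons, so 6 Schwann cell markers were read beside the whole set. Their sum was between 24.2 and 29.1 CPM in DPPIV- FAPs, against 14.8 to 20.1 CPM. Of the 4 tested, Cdh19 (log2 fold change -1.90) and S100b (-1.25) were lower, against 17.2% of all genes tested. The other 2 tested were not called, Foxd3 had at most 0.239 CPM, Sox10 at most 1.43 CPM, and none of the list was at 0 in all libraries. Among 3 perineurial markers, 2 were tested. Cldn1 was lower, with a log2 fold change of -1.68, and the other was not called. Cldn1 passed the filter through the DPPIV- libraries alone, so its direction was set by the filter. The list summed to between 16.2 and 18.1 CPM in DPPIV- FAPs and to between 14.3 and 14.8 CPM in DPPIV+ FAPs. The 5 myofibre markers, which Acta1 led, summed to between 32.4 and 50.7 CPM and none of the 3 tested was called. What part these cells have in the potassium channel values was not tested.

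Summed over all 94 genes, the level was nearly the same in both populations. DPPIV- FAPs had 254 ± 13.9 CPM (SD, n = 2) and DPPIV+ FAPs 247 ± 11.3 CPM, a ratio of 0.979 in mouse 1 and 0.966 in mouse 2. The composition of this sum was not the same. Kcnk5 made up 8.30% and 8.10% of the potassium channel reads in the DPPIV- libraries and 45.3% and 45.0% in the DPPIV+ libraries, with 95% exact binomial intervals of 7.56 to 9.09, 7.37 to 8.88, 43.8 to 46.8 and 43.6 to 46.5%. Without Kcnk5 DPPIV- FAPs had 233 ± 13.2 CPM left and DPPIV+ FAPs 135 ± 6.71 CPM, a ratio of 0.584 in mouse 1 and 0.578 in mouse 2. With 2 mice, an exact permutation test cannot give a p under 0.05 for such sums, and none was run. The intervals cover the counting error of reads within 1 library and leave out variation between mice. The reads carry no molecular identifiers, so copies of 1 molecule cannot be told from separate molecules.

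**Figure D3:**
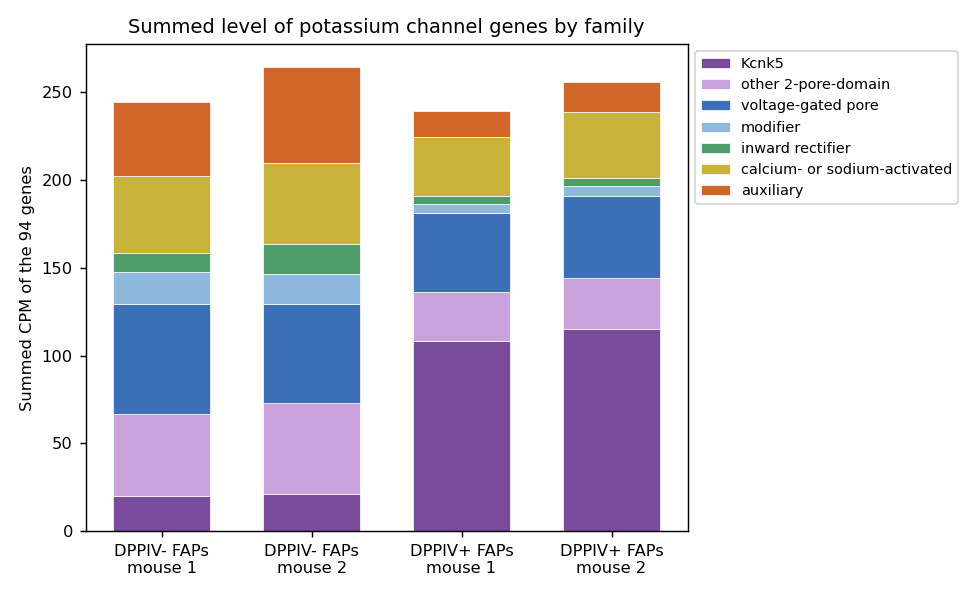
Summed CPM of the 94 potassium channel genes in each of the 4 libraries, stacked by family, with Kcnk5 drawn apart from the other 2-pore-domain genes. The 4 bars stand between 239 and 264 CPM, while the Kcnk5 part is 20.3 and 21.4 CPM in DPPIV- FAPs and 108 and 115 CPM in DPPIV+ FAPs.

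Levels of different genes were compared as FPKM, the CPM divided by the length in kilobases of all annotated exons of the gene. In DPPIV- FAPs, Kcne4 had the highest FPKM, 8.85 in mouse 1 and 13.4 in mouse 2. Kcnk6 (6.27 and 6.50 FPKM) and Kcnk5 (5.95 and 6.28 FPKM) came next and overlapped with each other, followed by Kcnk2 (3.84 and 4.82 FPKM). The other 18 tested genes were at 2.54 FPKM or less. In DPPIV+ FAPs, Kcnk5 led with 31.8 and 33.7 FPKM, and Kcnk6 with 5.11 and 4.72 FPKM was far below it. Kcnd1 (2.24 and 2.42 FPKM) and Kcne4 (1.61 and 2.35 FPKM) were among those that followed and could not be ordered, as their values overlapped.

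**Figure D4:**
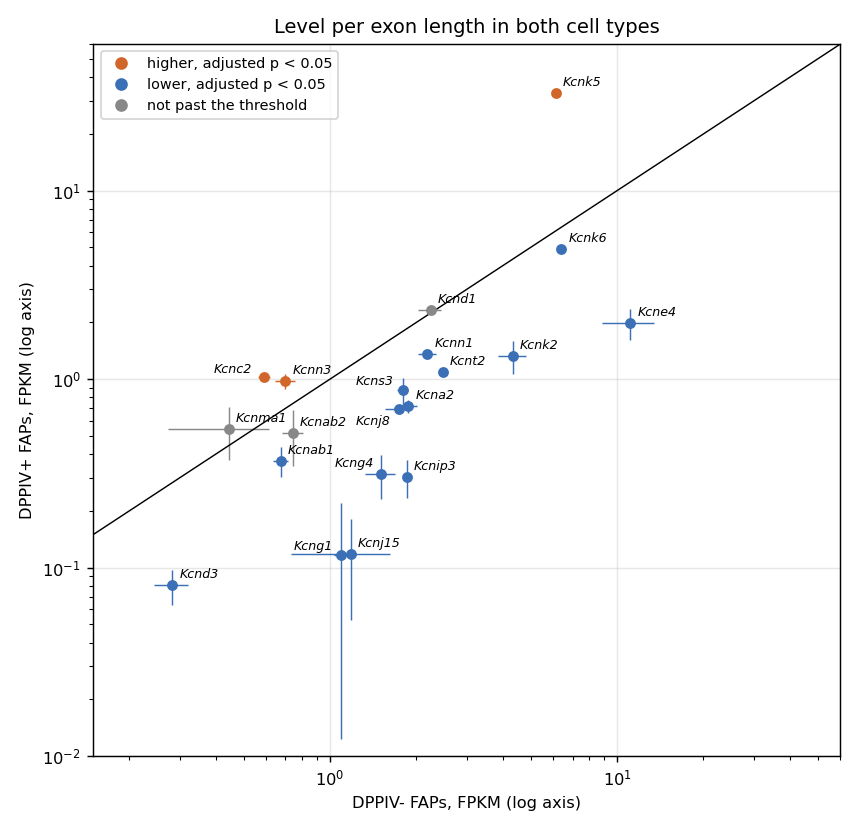
Mean FPKM of 20 of the 22 tested potassium channel genes in DPPIV- FAPs (horizontal, log axis) and in DPPIV+ FAPs (vertical, log axis), with bars from the lower to the higher of the 2 mice and a line where both are equal. Kcnk5 stands highest at 32.8 FPKM in DPPIV+ FAPs, Kcnc2 and Kcnn3 lie closer above the line, and the blue points of the lowered genes spread below the line down to Kcnd3 at 0.0805 FPKM.

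The 72 genes under the filter were read as counts. Those with the most reads over the 4 libraries were Kcnn4, the intermediate-conductance calcium-activated channel, with 141 reads, Kcnj2, a strong inward rectifier, with 119, and Kcna1, a neuronal delayed rectifier subunit, with 117. For a gene at 0, 3 reads are the limit that a library allows, which corresponds to between 0.143 and 0.167 CPM. The genes named next were chosen after their values were seen, because they were called when no filter was applied. Kcnq5, a slowly activating channel, had 1 and 0 reads in DPPIV- FAPs and 29 and 18 reads in DPPIV+ FAPs. In mouse 1 this is a ratio of 33.7 with a 95% counting interval of 5.59 to 1377, and in mouse 2 it was at least 6.44-fold higher against 3 reads in that library (adjusted p = 1.54e-06 without the filter in edgeR). Kcnq5 shares 237 exon bases with Gm26580 on the opposite strand.

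The genes Kcna5, Kcna1 and Kcna6 lie next to each other on chromosome 6, with gaps of 105 and 61.9 kb. Kcna5, a delayed rectifier of heart and smooth muscle, had 44 and 36 reads in DPPIV- FAPs and 16 and 16 reads in DPPIV+ FAPs (adjusted p = 0.0244 without the filter in edgeR). Kcna6 had 37 and 29 reads against 1 and 10 reads (adjusted p = 1.39e-04 without the filter in edgeR), and 2355 of its exon bases are shared with Gm26673 on the opposite strand. Kcna1 between them, named for its position, had 43 and 28 reads against 23 and 23 reads and was not called (adjusted p = 0.529 without the filter in edgeR). In each of the 3 neighbours both DPPIV+ libraries held fewer CPM than both DPPIV- libraries, an order that 28.6% of all genes tested had. That share is over genes that passed the filter, which these 3 did not. Kcna5 and Kcna6 were also chosen for being called lower, so the order of the 3 says nothing about the cluster. Kcnc4, a subunit of fast channels, had 10 and 8 reads in DPPIV- FAPs and 0 and 1 reads in DPPIV+ FAPs (adjusted p = 0.0482 without the filter in edgeR).

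Genes that work with potassium channels but carry other names were read from a list of 34, of which 22 were tested, 8 were lower (17.2% of all genes tested) and 3 higher (15.9% of all genes tested). With 2 CPM required in at least 3 libraries, 7 were lower and 2 higher (16.0% and 15.3% of all genes then tested). Beside Abcc9, the channel partner that moved was Lrrc55, a membrane protein that eases the opening of the large-conductance channel. It had 188 and 153 reads in DPPIV- FAPs and 14 and 25 reads in DPPIV+ FAPs, with a log2 fold change of -2.96 (SE 0.26, adjusted p = 6.51e-29 in edgeR). Lrrc55 passed the filter through the DPPIV- libraries alone and had to be lower. The pore gene Kcnma1, which passed it in all 4 libraries, was not called. Dpp6, a relative of Dpp4 without peptidase activity that joins A-type channels, had 80 and 87 reads against 87 and 102 reads (95% interval of the log2 fold change -0.09 to 0.76, adjusted p = 0.258 in edgeR). Its relative Dpp10 had 0 reads in all libraries.

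The sodium-potassium pump builds the gradient on which these channels draw, and 5 of its 9 tested genes were lower and 1 higher. The beta subunit Atp1b2 fell by 1.46 (log2, SE 0.19), and the regulators Fxyd5 and Fxyd6 fell by 1.08 and 1.03 (SE 0.07 each), all with both DPPIV+ libraries below the DPPIV- ones. The beta subunit Atp1b3 was slightly higher, with a log2 fold change of 0.26 (SE 0.07, adjusted p = 4.33e-04 in edgeR, 0.131 in DESeq2 and 0.0830 without mouse in the model).

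Among the cotransporters, Slc12a2, which imports potassium and chloride with sodium, had 291 and 286 reads against 175 and 215 reads (log2 fold change -0.41, SE 0.14, adjusted p = 0.0107 in edgeR, 0.348 in DESeq2 and 0.104 without mouse in the model). Hcn4, the pacemaker channel that passes sodium and potassium on hyperpolarization, had 11 and 13 reads in DPPIV- FAPs and 80 and 86 reads in DPPIV+ FAPs. Its log2 fold change of 2.93 (SE 0.31, adjusted p = 1.63e-19 in edgeR) was the largest rise on the list, and it passed the filter through the DPPIV+ libraries alone.

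**Figure D5:**
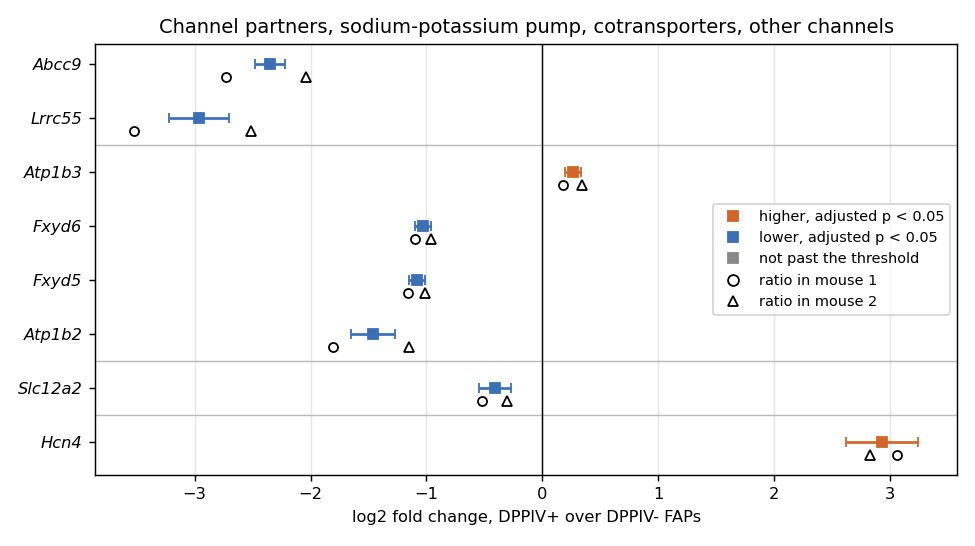
Fitted log2 fold change of DPPIV+ over DPPIV- FAPs (squares, with bars of 1 standard error) and the ratio in each mouse (open circles, mouse 1; open triangles, mouse 2) for 8 of the 11 called genes of channel partners, the sodium-potassium pump, cotransporters and other channels. Orange squares are higher and blue squares lower, with Hcn4 (2.93) farthest to the right and Lrrc55 (-2.96) and Abcc9 (-2.35) farthest to the left.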

How the data were processed

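The authors demultiplexed paired-end reads with bcl2fastq (2.20 per the labels), aligned them to mm10 with STAR, tallied them per annotated gene with RnaReadCounter and deposited raw read counts per gene symbol for 4 libraries, without normalization. The annotation release and the strand setting are not given in the sources used here. Of the 22 potassium channel genes tested, 9 share between 102 and 1016 exon bases with another gene, 8 of them on the opposite strand. A BLAST 2.17.0 search (at least 97% identity over at least 50 bases) found 1 other similar transcript, of Vwce, 102 bases on the opposite strand to Kcnn1. The labels name the NEBNext Ultra II kit and the paper's methods the TruSeq Stranded mRNA kit.

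From the deposited counts, TMM factors, edgeR 4.0.16 quasi-likelihood tests (filter of 2 CPM reached in 2 or more libraries, model with mouse and cell type, two-sided, Benjamini-Hochberg adjustment over 11588 genes, threshold 0.05) and DESeq2 1.42.0 Wald tests were computed in R 4.3.3. Tables were made in Python 3.11.15 with pandas 2.3.3 and numpy 2.4.6. edgeR shrank each dispersion fully to its trend over abundance (infinite prior degrees of freedom), which makes p-values very small. Standard errors are the log2 fold change over the square root of F, and 95% intervals use the matching normal multiple of them. Ratios per mouse used a prior count of 0.125. The labels give each mouse to 1 library of each cell type, so mouse was a block, and differences between the mice in the 2 cell types correlated at 0.434 over the genes tested. Positions and exon lengths are from GENCODE M21 on GRCm38 (94 of 94 symbols matched), promoter sequences from RefSeq on GRCm38.p6. The tests were also run on simulated counts. The alternatives were DESeq2, no mouse block, RLE normalization, a stricter filter (3 libraries) or none, robust moderation and each mouse left out.

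The genes, gene lists and tests were chosen with earlier results of these data known. The tested potassium channel genes are described with their reads in all 4 libraries, except for 2 that enter the counts and sums but are not reported here by name. The same holds for some partner, pump, cotransporter and marker genes. Under the filter, the 3 genes with the most reads are named, and of the 34 partner and transport genes most of those past the threshold, with some others as values. Kcnmb4os1 and Kcnmb4os2, with 0 reads, were counted as non-coding names.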

Additional observations from a re-analysis of the deposited data

How the results depend on the processing

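The 15 lower and 3 higher potassium channel genes became 9 and 1 with DESeq2, and the counts of all genes went from 1989 lower and 1837 higher to 995 and 923. With no replicate block they were 14 and 2, and over all genes 1119 and 1001. Without the filter 5 were higher, and with 2 CPM in at least 3 libraries 9 were lower, because 6 lower genes were then not tested. Genes called for the mouse term went from 4 to 1 with DESeq2. None of the 18 called potassium channel genes changed sign under any of these settings, with RLE normalization, with robust moderation or in either mouse alone. In either mouse alone none could, since the DPPIV+ and DPPIV- libraries of all 18 did not overlap. For the 6 genes that passed the filter through the DPPIV- libraries alone, the filter had also set the sign. RLE normalization and robust moderation kept all 18 calls, the unfiltered fit lost 1, and the fit with no replicate block lost 2, Kcnn3 among them. With 1 mouse left out no test was possible, since no residual degrees of freedom remain, and Kcng1 then ran from -6.22 (mouse 1) to -2.38 (mouse 2). The size of the p-values varied between fits, and the cause was not tested: the adjusted p of Kcnk5 in edgeR was 7.09e-221 with TMM, 1.13e-19 with RLE and 3.16e-05 with no replicate block. The adjusted p of Dpp4 was 0.178 with robust moderation, while all 18 potassium channel calls held there. With 2 mice, the p-values of the main edgeR fit rest on the spread of genes of similar abundance. How far a gene's own ratio differed between the 2 mice did not enter them. Depth limits the 72 genes under the filter, of which none had more than 141 reads over the 4 libraries.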
